A study of Mus musculus with 8 samples.

Results

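Expression of 32 genes of meiotic recombination and DNA repair was followed in mouse testis. They were chosen for their known roles, with earlier results of these data known. Each was found by gene symbol among the 57690 rows of the deposited expression table, where it matched 1 row. As grouped here, the set holds 7 genes of break formation, 12 of strand exchange, 8 of crossover formation and 5 of damage signalling and checkpoint control. In meiosis the enzyme SPO11 cuts the chromosomes on purpose, at places that PRDM9 marks in the mouse, and the cut ends are resected to single strands. Recombinases such as DMC1, loaded with the help of BRCA2 and its partners, pair these strands with the homologous chromosome. Some of the joined molecules are then stabilised by MSH4 and MSH5 and become crossovers, which hold homologues together until the first meiotic division, while ATM, ATR and their partners signal breaks and unpaired chromosomes.

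The study compared whole testes of C57BL/6 mice, aged 8 weeks, that received 2 intraperitoneal injections of 200 µg of an antibody against PD-L1, the ligand of the immune checkpoint receptor PD-1, or of an IgG2b isotype antibody, which does not bind that target. Testes were taken 7 days after treatment, and each group has 4 libraries, called IgG 1 to 4 and anti-PD-L1 1 to 4 by the replicate numbers of their labels. Whether each library is a different animal is not stated in the labels. The p-values below therefore weigh differences only against the scatter of these 8 libraries, which may be technical. A whole testis mixes spermatogonia, spermatocytes, spermatids and somatic cells, and in such bulk RNA fewer cells of a type and less RNA per cell cannot be told apart.

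Values are TPM, a share of all transcripts in a library that is scaled for gene length, so that levels can be set side by side between genes. TPM keeps no read depth, and the depth behind each value is unknown. Differences are anti-PD-L1 minus IgG on the log2(TPM + 1) scale, which understates differences of genes at low TPM, most of all near or below 1 TPM. They come from a limma fit over the 20343 genes whose mean reached 1 TPM or more, with Benjamini-Hochberg adjustment over all of them and a threshold of 0.05. Of the 32 genes, 31 entered this fit, and Mei4 did not because its mean was 0.453 TPM. IgG 4 and anti-PD-L1 1 stood apart from the other libraries over the whole table: 31572 and 31322 rows were above 0 in them, against 29064 to 29904 in the other 6, and results that rest on them are given with and without them.

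Promoter sequence was available in the RefSeq table for 27 of the 32 genes, as the 250 bases before and 50 after an annotated start on build GRCm38.p6 (for 4 genes with more than 1 start, the first listed). The letters GCGGGAA or their reverse complement TTCCCGC, a form of the motif bound by E2F cell-cycle factors, were in 9 of the 27 promoters (33.3%). Over 27025 promoters of all genes 4.66% held them, and 7.39% of 12605 promoters of genes tested here did. The median GC content was 59.7% in the 27 promoters, 59.0% in those of tested genes and 52.7% in all. Stretches of 41 bases around the match are shown for the genes whose match begins before the start (that of Spata22 runs across it), because this was the sequence feature that differed most in frequency between the set and all promoters. They are written 5′ to 3′ on the gene's strand, and the capitals mark the motif.
Brca2, chr5:150522436-150522476, plus strand: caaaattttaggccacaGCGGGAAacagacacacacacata
Hsf2bp, chr17:32034535-32034575, minus strand: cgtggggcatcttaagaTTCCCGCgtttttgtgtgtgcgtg
Mdc1, chr17:35841352-35841392, plus strand: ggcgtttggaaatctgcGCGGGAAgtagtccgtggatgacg
Mdc1, chr17:35841466-35841506, plus strand: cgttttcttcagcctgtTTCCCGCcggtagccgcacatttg
Msh5, chr17:35046664-35046704, minus strand: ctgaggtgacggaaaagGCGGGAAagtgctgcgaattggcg
Rnf212, chr5:108775091-108775131, minus strand: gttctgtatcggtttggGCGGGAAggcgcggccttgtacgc
Rpa2, chr4:132768306-132768346, plus strand: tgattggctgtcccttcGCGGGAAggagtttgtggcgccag
Spata22, chr11:73329720-73329760, plus strand: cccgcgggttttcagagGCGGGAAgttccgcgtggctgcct
The match of Brca2 began 168 bases before the start, those of Mdc1 129 and 15 bases before it, and those of Rnf212, Msh5, Hsf2bp, Rpa2 and Spata22 at 87, 65, 50, 37 and 4 bases. Atm and Rec114 carried theirs after the start, at bases 15 and 26. The other motifs searched on both strands were TGACGT, the core of the cyclic-AMP response element, in 18.5% of the 27 promoters against 7.64% of all, the E-box CACGTG in 11.1% against 7.24%, the MYB motif CAGTTG in 11.1% against 13.6%, and the NF-Y box CCAAT in 44.4% against 37.9%. For these other motifs the share in promoters of tested genes, whose median GC content was nearer to that of the set, was not computed. TGACGT can overlap its own reverse complement, as it does in the promoters of Brca2 and Rad51c, and the E-box reads the same on both strands. A match describes letters only and is not evidence that a factor binds there.

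The levels of the 32 transcripts ran from below 1 TPM to above 100 TPM. Rpa1, a subunit of the general single-strand binding complex RPA, and Psmc3ip, which encodes the DMC1 accessory factor HOP2, were above 100 TPM. Another 8 genes had means from 20 to 100 TPM, namely Mdc1, Atr, Hsf2bp, Spo11, Brca2, Topbp1, Zcwpw1 and Rpa2. Means from 5 to 20 TPM were found for 18 genes, Dmc1, Msh4 and Mlh3 among them, and Mei1, Brca1 and Atm were between 1 and 5 TPM. In every role at least 1 gene was below 10 TPM and at least 1 was above 15 TPM, as the plot of TPM by library shows.

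**Figure D1:**
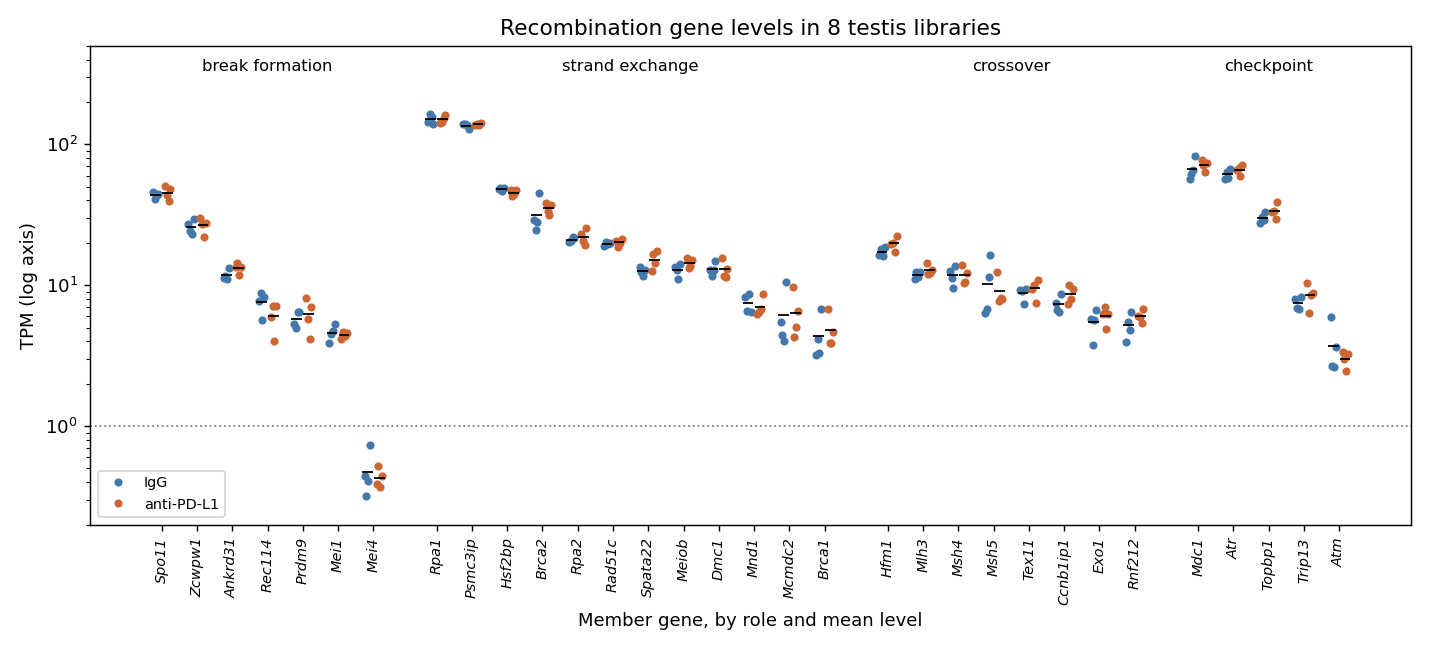
TPM of the 32 recombination genes on a log axis, grouped by role, with 1 point per library (4 IgG and 4 anti-PD-L1), a black line at each group mean and a dotted line at 1 TPM, the mean a gene needed to be tested. Rpa1 and Psmc3ip lie above 100 TPM, Mei4 lies below 1 TPM, and the points of both groups overlap for every gene.

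No member of the set passed the adjusted threshold between anti-PD-L1 and IgG testes, and 0% of all tested genes did (percent called 0 of 20343). At an unadjusted p under 0.05 in limma the count was also 0 of 31 members, where 5.23% of all tested genes passed. In no member did the 4 anti-PD-L1 values lie all above or all below the 4 IgG values, while 1.76% of tested genes lay fully above and 1.23% fully below. The estimated difference was above 0 for 22 of 31 members (71.0%), beside 58.3% of all tested genes. The median difference was 0.08 over the members and 0.03 over all tested genes, and the members ranged from -0.30 for Rec114 to 0.25 for Spata22. With 1 library left out, the member median ran from 0.04 (without anti-PD-L1 4 or anti-PD-L1 1) to 0.15 (without anti-PD-L1 3), and the median over all genes from 0.001 to 0.06. With the trend over GC content and gene length removed, the member median was 0.04 and the median over all genes in that fit -0.0005. Estimates were then above 0 for 22 of 31 members, beside 49.8% of all genes. The differences of Atr, Ankrd31, Hfm1 and Brca2 were 0.01, 0.08, 0.11 and 0.11 in that fit.

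The log2 difference was under 0.2 in size for 28 of 31 members. For 22 of the 31, the 95% interval lay within -0.5 to 0.5, a fold of 1.41 either way in TPM + 1 rather than in TPM. With a pseudocount of 0.1 in place of 1, the differences of Rec114 and Rnf212 were -0.34 and 0.23, larger in size than on the TPM + 1 scale. The lowest interval bound over the set was -0.72 and the highest 0.77. The median coefficient of variation within groups was 12.6% for the members and 15.0% for all tested genes.

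**Figure D2:**
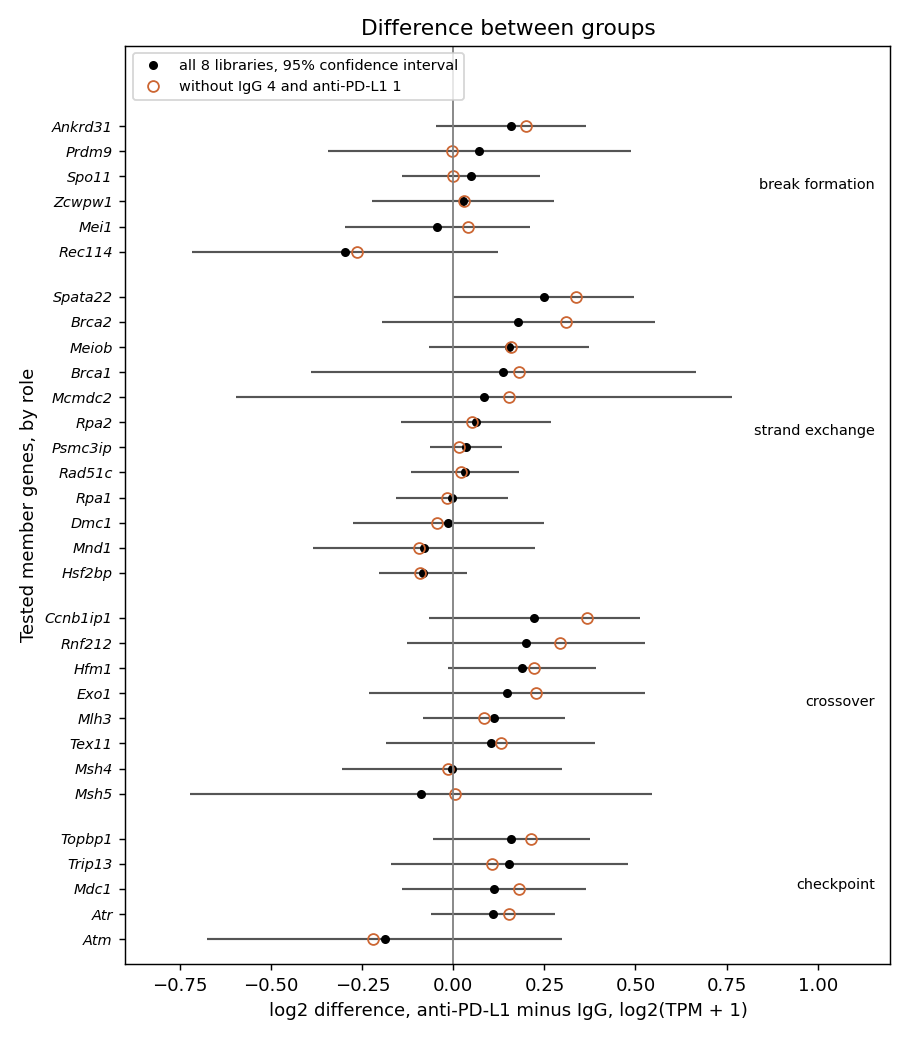
Difference in log2(TPM + 1), anti-PD-L1 minus IgG, for the 31 tested recombination genes by role, with limma's 95% interval as a bar, and open circles for the same estimate without IgG 4 and anti-PD-L1 1. The filled points run from -0.30 (Rec114) to 0.25 (Spata22), and the intervals of all 31 genes include 0.

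Among the 7 genes of break formation, Spo11 (chr2:172977700-172993576, mm10), which encodes the enzyme that cuts DNA, was at 46.05, 40.9, 43.9 and 44.3 TPM in IgG 1 to 4 and at 50.8, 43.7, 39.4 and 47.9 TPM in anti-PD-L1 1 to 4. The IgG range lay inside the anti-PD-L1 range, and the group means were 43.8 ± 2.15 TPM (SD, n = 4) with IgG and 45.5 ± 4.97 TPM (SD, n = 4) with anti-PD-L1. Their difference was 0.05 (SE 0.08, limma adjusted p = 0.999), and its sign turned to -0.01 without anti-PD-L1 1. Prdm9, the histone methyltransferase that places breaks in the mouse, was at 5.28, 4.96, 6.45 and 6.46 TPM in IgG 1 to 4 and at 8.16, 5.77, 4.13 and 6.97 TPM in anti-PD-L1 1 to 4. Anti-PD-L1 1 was the highest and anti-PD-L1 3 the lowest library for Prdm9, as they also were for Spo11, and the IgG values again lay between them. Zcwpw1 was placed in this role as a reader of the marks that PRDM9 writes, not as a gene needed for cutting. It ran from 23.2 to 29.4 TPM with IgG and from 21.9 to 29.8 TPM with anti-PD-L1.

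The partners that SPO11 needs to cut did not pass the test either. Rec114 (chr9:58652850-58743964), a subunit of the complex with MEI4 that promotes break formation, was at 7.78, 8.75, 5.67 and 8.23 TPM in IgG 1 to 4 and at 5.98, 7.07, 4.03 and 7.13 TPM in anti-PD-L1 1 to 4. IgG 1, 2 and 4 lay above every anti-PD-L1 library, but IgG 3 was lower than 3 of the 4 anti-PD-L1 libraries, and the difference was -0.30 (SE 0.19, limma adjusted p = 0.999). Without anti-PD-L1 3 it was -0.14. Of the exonic bases of Rec114, 26.9% are shared with Nptn on the opposite strand, which had a mean of 69 TPM, and no source used here gives the strand setting of the counting.

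Ankrd31 (chr13:96748272-96910039), a partner of REC114 needed for breaks in the region shared by X and Y, was at 11.3, 11.7, 11.1 and 13.2 TPM in IgG 1 to 4 and at 13.6, 14.4, 11.7 and 13.6 TPM in anti-PD-L1 1 to 4. Anti-PD-L1 1, 2 and 4 exceeded the highest IgG library and anti-PD-L1 3 lay among the IgG values, with a difference of 0.16 (SE 0.09, limma adjusted p = 0.999). Mei1, also required for breaks, ran from 3.91 to 5.30 TPM with IgG and from 4.13 to 4.63 TPM with anti-PD-L1. Mei4, the partner of REC114, was at 0.440, 0.320, 0.410 and 0.730 TPM in IgG 1 to 4 and at 0.390, 0.520, 0.370 and 0.440 TPM in anti-PD-L1 1 to 4, with IgG 4 highest, and was not tested at this level. Of the 6 tested genes of break formation, 4 had estimates above 0 and 2 below, with a median of 0.04.

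Strand exchange begins with single-strand binding proteins and recombinase loaders. Dmc1 (chr15:79561497-79605109), the meiosis-specific recombinase, was at 12.9, 11.7, 12.8 and 14.8 TPM in IgG 1 to 4 and at 15.7, 11.7, 11.4 and 13.1 TPM in anti-PD-L1 1 to 4. All IgG values fell inside the anti-PD-L1 range, the means were 13.1 ± 1.30 TPM (SD, n = 4) with IgG and 12.97 ± 1.95 TPM (SD, n = 4) with anti-PD-L1, and the difference was -0.01 (SE 0.12, limma adjusted p = 0.999). The sign of this estimate changed to 0.04 without IgG 4 and to 0.03 without anti-PD-L1 2. HOP2 and MND1 act as 1 complex that helps DMC1 capture the partner duplex. Psmc3ip, which encodes HOP2, was at 139, 139.5, 136 and 129 TPM in IgG 1 to 4 and at 137, 139.8, 137 and 143 TPM in anti-PD-L1 1 to 4, the tightest member with a within-group coefficient of variation of 2.93%. It shares 21.2% of its exonic bases with Mlx on the opposite strand, which had a mean of 5.99 TPM. Mnd1 was much lower, from 6.49 to 8.64 TPM with IgG and from 6.27 to 8.62 TPM with anti-PD-L1.

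MEIOB and SPATA22 form a meiosis-specific complex on the single strands. Spata22 (chr11:73329741-73346044) was at 13.5, 12.5, 11.6 and 12.7 TPM in IgG 1 to 4 and at 12.6, 16.6, 14.3 and 17.5 TPM in anti-PD-L1 1 to 4. Anti-PD-L1 2, 3 and 4 exceeded all IgG libraries, and anti-PD-L1 1 lay within the IgG range. Its difference was 0.25 (SE 0.11, limma adjusted p = 0.957), the highest estimate and the smallest unadjusted p of the set (0.0505). Without anti-PD-L1 1 the estimate was 0.33 with an unadjusted limma p of 0.00938 and an adjusted p of 0.660. In the annotation 80.5% of the exonic bases of Spata22 are shared with the same-strand gene model Gm49340, which had a mean of 7.23 TPM, so reads could have been split between them. Meiob (chr17:24804289-24839788) was at 13.5, 12.9, 11.1 and 14.2 TPM in IgG 1 to 4 and at 15.7, 13.3, 13.6 and 15.1 TPM in anti-PD-L1 1 to 4, with anti-PD-L1 1 and 4 above the IgG range and a difference of 0.15 (SE 0.10, limma adjusted p = 0.999). Without IgG 3, its lowest library, this was 0.09.

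BRCA2 loads recombinases, and HSF2BP binds BRCA2 in spermatocytes. Hsf2bp (chr17:31944769-32036349) was at 48.2, 48.9, 46.8 and 49.1 TPM in IgG 1 to 4 and at 47.3, 43.1, 44.5 and 47.2 TPM in anti-PD-L1 1 to 4. Anti-PD-L1 2 and 3 were below all IgG libraries and the other anti-PD-L1 libraries were above IgG 3 only, with a difference of -0.08 (SE 0.05, limma adjusted p = 0.999). Brca2 (chr5:150522630-150570329), a gene added to those with printed differences after its values were seen, was at 28.9, 24.8, 28.1 and 44.9 TPM in IgG 1 to 4 and at 38.6, 33.6, 31.7 and 36.9 TPM in anti-PD-L1 1 to 4. All 4 anti-PD-L1 libraries exceeded IgG 1, 2 and 3 and all lay below IgG 4, and the difference was 0.18 (SE 0.17, limma adjusted p = 0.999). Without IgG 4 it was 0.35, with an unadjusted limma p of 0.00463 and an adjusted p of 0.341, and without both IgG 4 and anti-PD-L1 1 it was 0.31 (adjusted p = 0.375). Without IgG 2, the lowest library for Brca2, it was 0.08.

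Brca1, a further partner in repair of resected ends, was at 3.19, 4.14, 3.32 and 6.78 TPM in IgG 1 to 4 and at 6.83, 3.91, 3.87 and 4.66 TPM in anti-PD-L1 1 to 4. IgG 4 and anti-PD-L1 1 stood above the other 6 libraries in Brca1, and likewise in Mcmdc2, an MCM-domain protein needed for strand exchange, which was at 5.52, 4.40, 4.02 and 10.6 TPM in IgG 1 to 4 and at 9.65, 4.32, 5.06 and 6.52 TPM in anti-PD-L1 1 to 4. Mcmdc2 had the largest within-group coefficient of variation among the tested members, 43.3%. Rad51c, which acts in homologous recombination, ran from 19.02 to 20.4 TPM with IgG and from 18.8 to 21.3 TPM with anti-PD-L1. Of the RPA subunits, Rpa1 ran from 139 to 165 TPM with IgG and from 143 to 162 TPM with anti-PD-L1. Rpa2 ran from 20.2 to 21.9 TPM with IgG and from 19.4 to 25.4 TPM with anti-PD-L1, and the groups overlapped for both. Of the 12 genes of strand exchange, 8 had estimates above 0 and 4 below, with a median of 0.05.

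Among the crossover genes, Hfm1 (chr5:106840192-106926321), a helicase needed for crossovers, was at 16.4, 17.96, 16.2 and 18.5 TPM in IgG 1 to 4 and at 19.8, 19.98, 17.3 and 22.4 TPM in anti-PD-L1 1 to 4. Anti-PD-L1 1, 2 and 4 were above all IgG libraries and anti-PD-L1 3 was within their range. The means were 17.3 ± 1.15 TPM (SD, n = 4) with IgG and 19.9 ± 2.05 TPM (SD, n = 4) with anti-PD-L1, and the difference was 0.19 (SE 0.09, limma adjusted p = 0.981). RNF212 and HEI10 are enzymes of the SUMO and ubiquitin pathways with opposing parts in choosing crossover sites. Ccnb1ip1 (chr14:50789248-50807732), which encodes HEI10, was at 7.46, 6.70, 6.44 and 8.61 TPM in IgG 1 to 4 and at 7.31, 10.1, 8.02 and 9.37 TPM in anti-PD-L1 1 to 4. Anti-PD-L1 2 and 4 exceeded the IgG range, and the difference was 0.22 (SE 0.13, limma adjusted p = 0.999). It was 0.37 without both IgG 4 and anti-PD-L1 1 (limma adjusted p = 0.399). The gene shares 12.4% of its exonic bases with Rpph1 on the same strand.

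Rnf212 (chr5:108729290-108774982) was at 3.94, 5.51, 4.81 and 6.50 TPM in IgG 1 to 4 and at 6.09, 5.95, 5.35 and 6.78 TPM in anti-PD-L1 1 to 4. The lowest anti-PD-L1 library exceeded IgG 1 and 3 but not IgG 2 and 4, with a difference of 0.20 (SE 0.14, limma adjusted p = 0.999). It was 0.10 without IgG 1 and 0.30 without IgG 4. Msh4 and Msh5 encode the 2 subunits of the clamp that marks future crossovers. Msh4 ran from 9.56 to 13.7 TPM with IgG and from 10.3 to 13.98 TPM with anti-PD-L1. Msh5 was at 6.35, 6.76, 11.5 and 16.3 TPM in IgG 1 to 4 and at 12.4, 7.73, 8.13 and 8.04 TPM in anti-PD-L1 1 to 4, and IgG 4, anti-PD-L1 1 and IgG 3 were its 3 highest libraries, with IgG 4 more than 2 times as high as IgG 1 and 2.

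MLH3 belongs to the endonuclease that resolves crossovers, with EXO1 as its helper. Mlh3 ran from 11 to 12.5 TPM with IgG and from 11.97 to 14.4 TPM with anti-PD-L1, and Exo1 from 3.77 to 6.70 TPM with IgG and from 4.85 to 7.04 TPM with anti-PD-L1. Tex11, an X-linked gene needed for normal crossover formation in males, was at 9.22, 9.03, 7.41 and 9.34 TPM in IgG 1 to 4 and at 9.47, 10.1, 7.51 and 10.98 TPM in anti-PD-L1 1 to 4. Of the 8 crossover genes, 6 had estimates above 0 and 2 below, with a median of 0.13.

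In the checkpoint role, Topbp1 (chr9:103305215-103350428), an activator of ATR on unpaired chromosomes, was at 27.8, 30.4, 28.9 and 33.1 TPM in IgG 1 to 4 and at 32.95, 33.6, 29.4 and 39.2 TPM in anti-PD-L1 1 to 4. Anti-PD-L1 2 and 4 were above the IgG range and anti-PD-L1 1 and 3 within it, with a difference of 0.16 (SE 0.09, limma adjusted p = 0.999). Without anti-PD-L1 4, its highest library, the estimate was 0.09. Atr (chr9:95857597-95951781), the kinase that drives silencing of the sex chromosomes, was at 56.97, 64.1, 57.6 and 66.6 TPM in IgG 1 to 4 and at 65.3, 67.6, 60.03 and 71.7 TPM in anti-PD-L1 1 to 4. The same 2 libraries exceeded the IgG range of Atr, and the difference was 0.11 (SE 0.08, limma adjusted p = 0.999), or 0.07 without anti-PD-L1 4.

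Trip13 (chr13:73911347-73937784), the ATPase that removes HORMA-domain proteins from paired axes, was at 8, 6.89, 6.74 and 8.31 TPM in IgG 1 to 4 and at 10.4, 6.35, 8.50 and 8.80 TPM in anti-PD-L1 1 to 4. Anti-PD-L1 1, 3 and 4 exceeded all IgG libraries while anti-PD-L1 2 was the lowest of all 8, with a difference of 0.15 (SE 0.14, limma adjusted p = 0.999). It was 0.06 without anti-PD-L1 1 and 0.27 without anti-PD-L1 2. Mdc1, an adaptor that spreads the damage signal along chromatin, ran from 56.97 to 82.3 TPM with IgG and from 63.98 to 77.3 TPM with anti-PD-L1. Atm, the kinase that answers breaks and limits their number, was at 5.92, 2.66, 2.64 and 3.67 TPM in IgG 1 to 4 and at 3.37, 2.97, 2.45 and 3.26 TPM in anti-PD-L1 1 to 4, and IgG 1 stood apart from the other 7 libraries. Of the 5 checkpoint genes, 4 had estimates above 0 and 1 below, with a median of 0.11.

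Partners that act as 1 protein complex were then compared within each library, as the difference in log2(TPM + 1) of the first minus the second. Groups were compared by an exact permutation test (two-sided, all 70 assignments) with adjustment over 5 pairs. Its smallest possible unadjusted p is 0.0286, so that 1 fully separated pair alone could not pass after adjustment, and none of the 5 pairs separated the groups fully. For Hsf2bp over Brca2 the ratio was 0.72, 0.95, 0.71 and 0.13 in IgG 1 to 4 and 0.29, 0.35, 0.48 and 0.35 in anti-PD-L1 1 to 4. IgG 1, 2 and 3 were higher than all anti-PD-L1 libraries and IgG 4 was the lowest of all. The means were 0.63 ± 0.35 and 0.37 ± 0.08 (SD, n = 4 each), a difference of -0.26 (exact p = 0.143, adjusted p = 0.643 over 5 pairs). The difference was -0.43 without IgG 4, -0.40 without both IgG 4 and anti-PD-L1 1, and -0.15 without IgG 2.

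The ratio of Msh4 to Msh5 was 0.90, 0.67, -0.25 and -0.23 in IgG 1 to 4 and 0.16, 0.37, 0.34 and 0.55 in anti-PD-L1 1 to 4. IgG 3 and IgG 4 thus had more Msh5 than Msh4 transcript, unlike the other 6 libraries, and the group difference was 0.08 (exact p = 0.771, adjusted p = 0.771). Psmc3ip exceeded Mnd1 in every library, by 4.02 ± 0.18 with IgG and 4.13 ± 0.16 with anti-PD-L1 (exact p = 0.257, adjusted p = 0.643). Rpa1 exceeded Rpa2 by 2.78 ± 0.13 and 2.72 ± 0.16 (exact p = 0.429, adjusted p = 0.643). Meiob and Spata22 were near balance, at 0.03 ± 0.09 with IgG and -0.06 ± 0.26 with anti-PD-L1 (exact p = 0.514, adjusted p = 0.643). The pair of Mei4 and Rec114 was not tested, since Mei4 was below 1 TPM.

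**Figure D3:**
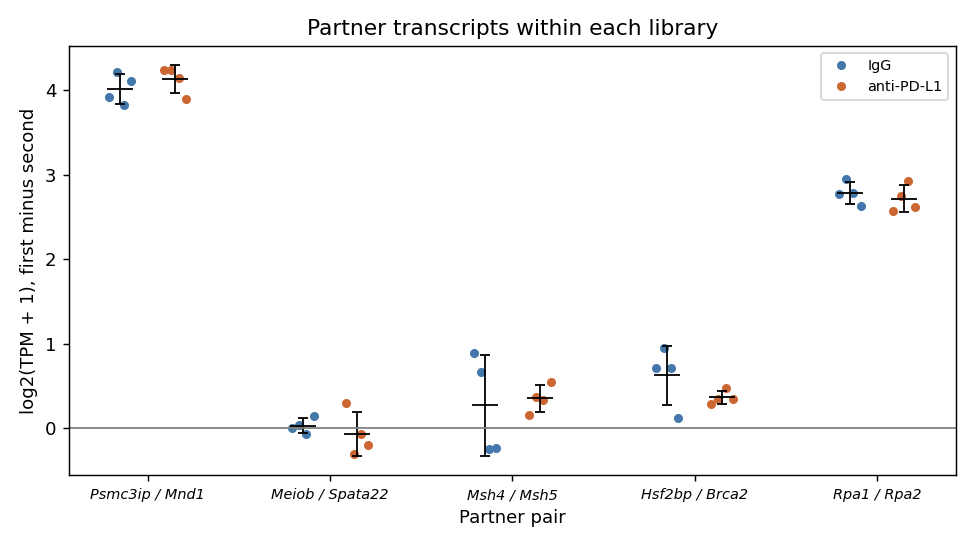
Ratio of partner transcripts as log2(TPM + 1) of the first gene minus the second, with 1 point per library and the mean ± SD of each group, for 5 pairs. Psmc3ip lies about 4 above Mnd1 in both groups, the IgG libraries of Msh4 over Msh5 spread from -0.25 to 0.90, and IgG 4 is lowest for Hsf2bp over Brca2.

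The whole set was then followed across libraries. The sum of the 32 genes was 786, 806, 791 and 863 TPM in IgG 1 to 4 and 868, 824, 786 and 894 TPM in anti-PD-L1 1 to 4. IgG 4 was the highest IgG library and anti-PD-L1 3 was at the level of IgG 1, so the groups overlapped. Of the 31 tested members, 29 were above their own mean over the 8 libraries in anti-PD-L1 4, 25 in IgG 4 and 24 in anti-PD-L1 1, but 6 in each of IgG 3 and anti-PD-L1 3. Anti-PD-L1 4 and anti-PD-L1 1 were each the highest library for 9 of the 31 tested members, and the lowest for 0 and 1. Anti-PD-L1 3 was the highest for 0 and the lowest for 7, while IgG 1 and IgG 3 were each the lowest for 8. Of all tested genes, 13.4% were highest in anti-PD-L1 4, 20.9% in anti-PD-L1 1 and 9.15% in anti-PD-L1 3. The shares of all tested genes lowest in each library were not computed. The median log2 deviation over all tested genes was 0.08 in IgG 4, 0.05 in anti-PD-L1 1 and 0.02 in anti-PD-L1 4. It was -0.06 in IgG 3 and -0.05 in anti-PD-L1 3. Over the members these medians were 0.07, 0.11, 0.11, -0.14 and -0.09.

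IgG 4 and anti-PD-L1 1 were the 2 highest libraries for 20.9% of all tested genes and for 8 of the 32 members, namely Zcwpw1, Dmc1, Mcmdc2, Brca1, Brca2, Msh4, Msh5 and Mdc1. Without IgG 4, 26 of 31 estimates were above 0 (64.9% of all genes were) and 4 members had an unadjusted limma p under 0.05 beside 9.15% of all genes. These were Brca2, Mdc1, Ccnb1ip1 and Ankrd31, and none passed adjustment. Without both libraries 22 estimates were above 0 and 9 below, with Brca2, Ccnb1ip1 and Spata22 at an unadjusted p under 0.05 beside 9.88% of all genes. Without anti-PD-L1 1 alone, 18 of 31 estimates were above 0, beside 50.4% of all genes, and the excess of estimates above 0 in the set thus moved with single libraries.

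**Figure D4:**
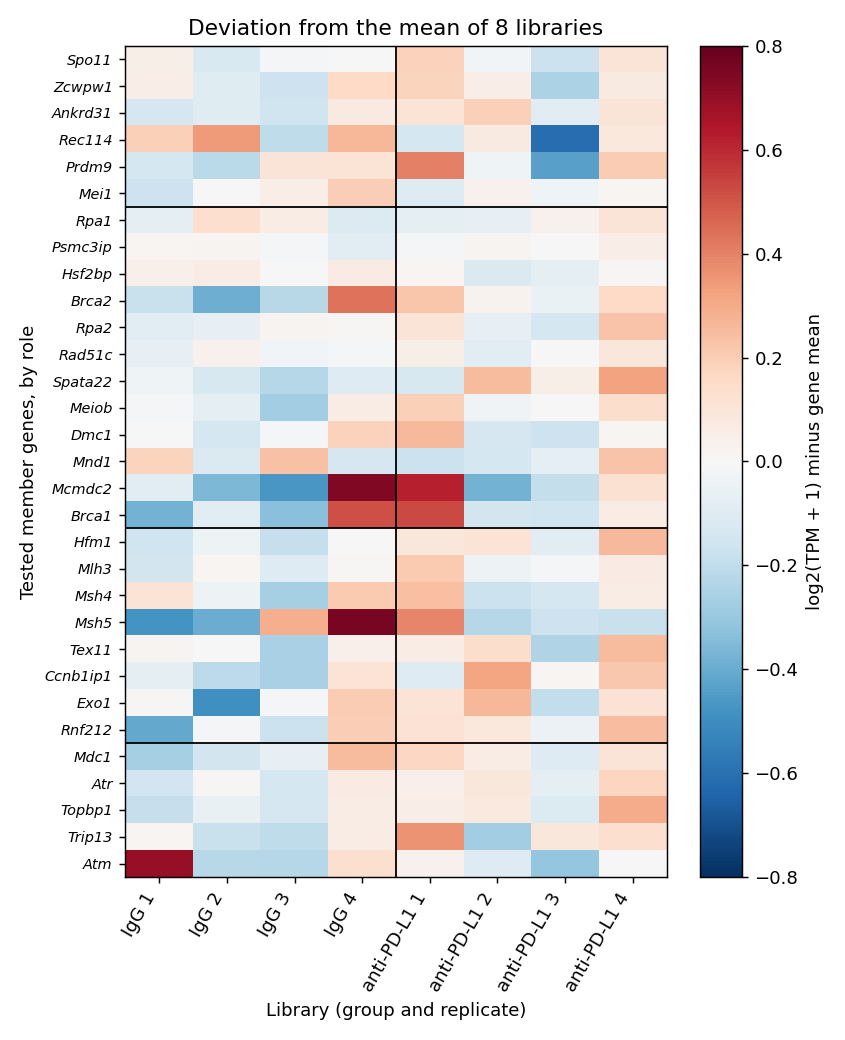
Heat map of log2(TPM + 1) minus each gene's mean over the 8 libraries, for the 31 tested recombination genes by role, on a colour scale centred at 0. Columns IgG 4, anti-PD-L1 1 and anti-PD-L1 4 are mostly above the gene means and IgG 3 and anti-PD-L1 3 mostly below, and the strongest deviations are 0.76 for Msh5 and 0.74 for Mcmdc2, both in IgG 4, and 0.70 for Atm in IgG 1.

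Markers of the cells that hold these transcripts are given by their summed level in each group. The 6 genes of meiotic entry summed to 346 to 404 TPM with IgG and 374 to 418 TPM with anti-PD-L1, and the 11 markers of pachytene and later spermatocytes to 5764 to 6305 TPM and 5759 to 6119 TPM. Spermatogonial markers summed to 138 to 165 TPM and 133 to 168 TPM, and the 12 genes of dividing cells to 385 to 417 TPM and 381 to 456 TPM. All these ranges overlapped between groups, and in none of the marker lists was a gene at 0 in every library. Of 12 tested spermatogonial markers, 8 had estimates above 0 and 4 below. An unadjusted limma p under 0.05 was found for 3 of them, all above 0, beside 5.23% of all tested genes. In 1 of them the anti-PD-L1 values lay fully above the IgG values, beside 1.76% of all tested genes. Of the 11 pachytene and later markers, 1 had an unadjusted limma p under 0.05, with an estimate above 0. Of the somatic lists, Sertoli cell markers summed to 1148 to 1299 TPM and 1090 to 1509 TPM, macrophage markers to 51.0 to 61.8 TPM and 57.9 to 72.2 TPM, and Leydig cell markers to 1203 to 1553 TPM and 2128 to 3433 TPM. The Leydig cell sums did not overlap, although 5 of the 8 Leydig cell markers had estimates below 0 (median -0.03, highest 1.30). An unadjusted limma p under 0.05 was found for 2 of the 8, with estimates above 0. In 1 of the 8 the anti-PD-L1 values lay fully above the IgG values. The part of the Leydig cell markers in the members' values was not tested. Of 8 round spermatid markers, 7 had estimates above 0 and 2 of them an unadjusted limma p under 0.05, with sums of 1081 to 1251 TPM and 1150.2 to 1326 TPM. All 10 markers of elongating spermatids had estimates below 0, and 2 of them had an unadjusted limma p under 0.05. Their sums were 61714 to 77331 TPM with IgG and 58980 to 67006 TPM with anti-PD-L1. TPM values share a fixed total, and the part of these abundant transcripts in the 22 to 9 split was not tested. Of the adipocyte markers, 5 were tested, all with estimates below 0, and 1 had an unadjusted limma p under 0.05. The adipocyte markers summed to 81.6 TPM in IgG 1 and to 7.81 to 31.4 TPM in the other 7 libraries. Their part in the values of IgG 1, such as that of Atm, was not tested.

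Other genes of the same pathway were read from the same fit. Of all tested genes in that fit, 58.3% had estimates above 0 and 5.23% an unadjusted limma p under 0.05. Of 50 other recombination and repair genes, 40 had estimates above 0 and 10 below, with a median of 0.06. An unadjusted limma p under 0.05 was found for 1 of the 50. This was H2afx, which encodes the histone H2AX that is phosphorylated around breaks, at 54.3, 35.7, 50.9 and 67.97 TPM in IgG 1 to 4 and at 63.5, 76.1, 74.7 and 78.6 TPM in anti-PD-L1 1 to 4. Anti-PD-L1 2, 3 and 4 exceeded all IgG libraries, and the difference was 0.51 (SE 0.17, limma adjusted p = 0.778). Gen1, a nuclease for joint molecules, was next, with a difference of 0.41 (SE 0.20, limma adjusted p = 0.981). Of 14 genes of the synaptonemal complex and the HORMA-domain axis, 9 had estimates above 0 and 5 below, with a median of 0.05 and 0 at an unadjusted p under 0.05. Syce2, a central-element protein, differed by -0.13 (SE 0.06, limma adjusted p = 0.981), and Rec8, the meiotic cohesin subunit, by 0.13 (SE 0.08, limma adjusted p = 0.999).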

How the data were processed

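RNA of 8 mouse testis libraries was sequenced, and the authors deposited 1 table of TPM values per gene, with gene lengths, per the file headers. CASAVA 1.8, HISAT2, StringTie, RSEM and build mm10 are named in the submitters' processing notes. Not given in the sources used here were the step each tool served, the annotation, the strand handling and the filtering. The table has 57690 rows, of which 55536 carry an Ensembl identifier. Groups follow the labelled treatment, 4 libraries each.

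Genes whose mean reached 1 TPM were tested with limma 3.58.1 (R 4.3.3) on log2(TPM + 1) with an intensity trend, without covariates and with Benjamini-Hochberg adjustment. Exact permutation tests were also run in R, and promoters were searched in Python 3.11.15. The fit was tested on simulated data. Coordinates and gene overlaps are from GENCODE (mm10), promoters from RefSeq (GRCm38.p6). Members and lists were chosen with earlier results of these data known. Differences are printed for the 3 tested members of each role with the smallest unadjusted p, for Spo11 and Dmc1, and for the 2 such genes of each comparison list. Brca2 was added after its values were seen. Sensitivity was examined under 18 other settings. TPM gives no read depth, so counting error cannot be stated. The largest share of equal values above 0 between any pair of libraries was 2.89% of rows, so none was a copy of another.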

Additional observations from a re-analysis of the deposited data

Results flagged for a closer look

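In 74 groups of 4 values, the highest or lowest library was compared with its nearest neighbour relative to the whole range of the group (Dixon's criterion at its 95% critical value). Chance alone marks about 1 group in 20, and 2 were marked. Msh5 was at 12.39 TPM in anti-PD-L1 1, far above the 7.73 to 8.13 TPM of the other 3 anti-PD-L1 libraries (gap over range 0.914). Tex11 was at 7.41 TPM in IgG 3, below the 9.03 to 9.34 TPM of the other 3 IgG libraries (gap over range 0.839).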

How the results depend on the processing

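Over 18 other settings, 395 of 428 recomputed values were classed as unchanged. For the 14 members with printed differences and for the partner ratios, this meant the same direction and side of the threshold. None of them crossed the threshold, so only changes of direction were counted, in 5 of 252 member values and 3 of 75 ratio values. Size was not judged, and Brca2 at 0.35 without IgG 4, beside 0.18 as reported, was classed as unchanged. The number classed as unchanged is therefore no measure of how steady the sizes were. For counts, unchanged meant an equal or similar number, and for the member median a move smaller than its scatter between libraries. No member passed adjustment under any setting; the smallest adjusted limma p of a member was 0.256 (Spata22, array quality weights). Genes called over the whole table, 0 in the fit as reported, numbered 1 with a pseudocount of 0.1, 5 with array weights, 1 with the GC and length trend removed, 8 without both IgG 4 and anti-PD-L1 1, and 0 to 15 when 1 library was left out (15 without IgG 4, 3 without anti-PD-L1 4, 1 without IgG 2 and 1 without anti-PD-L1 1). Members at an unadjusted limma p under 0.05 numbered 0 as reported, beside 5.23% of all genes. The number was 1 with a pseudocount of 0.1 (5.21% of all genes), 1 without a filter (4.05%) and 1 with a filter of 5 TPM (6%). It was 1 with quantile normalization (5.51%), 6 with array weights (10.6%) and 3 without both libraries (9.88%). With 1 library left out it was 0 to 4. These were 4 without IgG 4 (9.15% of all genes) and 3 without anti-PD-L1 3 (5.1%) at the upper end. With the replicate block the number was 2 (Hfm1 and Rec114), beside 5.24% of all genes. Deviations of same-numbered libraries correlated by -0.11, 0.10, 0.09 and -0.20, and those of IgG 4 and anti-PD-L1 1 by 0.36. Such correlations cannot decide whether libraries of the same number share anything, and the labels do not say. Members whose groups did not overlap, 0 as reported, numbered 2 with quantile normalization, 4 without both libraries and 0 to 3 with 1 left out. The same shares over all tested genes were not computed under these settings, and smaller groups separate more easily. These counts are therefore no result about the members. Some estimates changed sign. Spo11 was -0.00073 without both libraries and -0.0066 to 0.11 with 1 left out, and Dmc1 was -0.10 to 0.0443 with 1 left out. The ratio of Msh4 to Msh5 was -0.0198 without both and -0.088 to 0.29 with 1 left out. Further members changed sign with 1 library left out. Among them were Atm (without IgG 1), Msh5 (without IgG 4), and Brca1 and Mcmdc2 (both without anti-PD-L1 1). The cause of these changes was not tested. Under quantile normalization 20 members were above 0 and 11 below, beside 50.7% of all genes above 0. Depth is unknown from TPM, so the limit it sets, chiefly for Mei4, cannot be stated.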
